A study of Mus musculus with 12 samples.

Results

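Epididymal white adipose tissue (eWAT) of mice fed luteolin in a high-fat diet (LU) was compared with eWAT of mice on the normal diet (ND), over all genes. The comparison gives the genes whose level differed from that of normal-diet mice although luteolin was in the diet. It rests on 6 of the 12 libraries of the series, namely LU mice 2, 3 and 8 and ND mice 2, 3 and 4, with 1 library per mouse. All animals were male C57BL/6J mice, 21 weeks old after 16 weeks of diet. ND mice had the normal diet with no supplement, HFD mice the high-fat diet with no supplement, and LU mice the high-fat diet with 0.003% luteolin by weight. The remaining mice (CLE) had the high-fat diet with 1.5% of an ethanol extract of chrysanthemum leaves, and they enter the shared estimate of the spread and a single comparison. No mouse had luteolin in the normal diet, so in LU against ND the diet and the luteolin cannot be told apart, and values of the 3 HFD mice are given beside the leading genes and lists. The whole tissue was extracted.

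Luteolin is a flavone found in many vegetables and herbs. In obese mice, the epididymal fat pad is known for the death of overfilled adipocytes and for macrophages that gather around them, take up their lipid and degrade it in lysosomes. Such lipid-associated macrophages carry the lipid receptor TREM2 and the surface protein GPNMB, and the tissue around them gains collagen. In the adipocytes of obese mice, the genes for making fatty acids from glucose and for answering insulin and adrenergic signals are often low, while leptin is high.

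The deposited values are FPKM (fragments scaled to transcript length and to the total of each library), which were summed over the transcripts of each gene. Of 22947 genes, limma was run on log2(FPKM + 1) of the 12775 that reached 1 FPKM in 3 or more libraries. Calls needed a fold change over 1.5 and an adjusted p (Benjamini-Hochberg, over all these genes) under 0.05. This adjusted p is given as the limma adjusted p, and log2 fold changes are LU minus ND on the log2(FPKM + 1) scale, on which genes with low FPKM appear to change less than they do. Some genes stand on more than 1 gene list, so the counts of different lists are not separate results. Counts of gene lists are over the members that passed this filter. They were all or nearly all listed members for most lists, but 25 of 44 collagens, 11 of 20 genes of T and NK cells, 4 of 10 each of B cells and neutrophils, 2 of 9 of skeletal muscle, 2 of 6 of lymph node stroma and 1 of 13 of epididymis and testis. The files hold no counts, so the depth behind a value is unknown. Pearson's r across genes lay between 0.978 and 0.988 within ND and within LU, and between 0.953 and 0.978 from LU to ND. Genes of adipocytes were high in every ND and LU mouse, with *Fabp4* between 15189 and 20210.2 FPKM, while the summed genes of epididymis and testis did not exceed 5.94 FPKM. ND mice 3 and 4, LU mouse 2 and 1 CLE mouse carry a letter R in their labels, whose meaning the labels do not give. LU mouse 2 was compared with ND mice 3 and 4, and LU mice 3 and 8 with ND mouse 2. All 842 called genes had the same sign in both of these comparisons, which for 837 of them follows from the absence of overlap between the groups. In the fit without the 4 libraries with the letter, which leaves 1 ND mouse and assumes that it varies like the other groups, 272 of the 635 higher and 83 of the 207 lower calls remained.

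Between LU and ND, 635 genes were called higher in LU (4.97% of the genes tested) and 207 lower (1.62%), together 6.59%. In the same fit, 25.6% of the genes were called between HFD and ND and 12.4% between LU and HFD. These comparisons share mice, so their counts are given side by side only. The 3 LU mice lay above the 3 ND mice in 18.5% of the genes tested and below them in 11.6%. An unadjusted p under 0.05 in limma was found for 3542 of the 12775 genes, in either direction. Changes over 4-fold were found for 31 of the genes called higher and 3 of those called lower, and changes over 2-fold for 257 and 52. Of the calls, 381 of the 635 higher and 90 of the 207 lower were made in each of the 6 fits that left out 1 ND or LU mouse. LU mouse 8 mattered most, and without it 443 genes were called higher and 129 lower.

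The 4 genes with the largest rise are known from lipid-associated macrophages. *Mmp12* (chromosome 9, 7344381 to 7369499 in GRCm38), the macrophage elastase, had 2.06, 3.33 and 4.82 FPKM in ND mice 2, 3 and 4 and 89.9, 59.6 and 147 FPKM in LU mice 2, 3 and 8. *Gpnmb* (chromosome 6, 49036546 to 49070929), which encodes a glycoprotein of phagocytes, had 5.54, 3.50 and 3.30 FPKM in the ND mice and 65.3, 46.7 and 109 FPKM in the LU mice. *Trem2* (chromosome 17, 48346401 to 48354147), the lipid receptor, had 1.49, 1.88 and 1.18 FPKM in the ND mice and 21.2, 16.4 and 47.6 FPKM in the LU mice. For all 3 genes the LU mice lay above every ND mouse and below every HFD mouse, LU mouse 8 was the highest of its group and LU mouse 3 the lowest. The log2 fold change was 4.46 (standard error 0.63, limma adjusted p = 0.0018) for *Mmp12*, 3.81 (standard error 0.60, limma adjusted p = 0.003) for *Gpnmb* and 3.41 (standard error 0.54, limma adjusted p = 0.003) for *Trem2*. Against HFD, where the levels were 541, 412 and 459 FPKM for *Gpnmb* and 209, 163 and 167 FPKM for *Trem2*, the log2 fold change of LU was -2.74 (limma adjusted p = 0.0068) and -2.76 (limma adjusted p = 0.0037). Without the 4 libraries with the letter R, which leaves a single ND mouse, the 3 genes were no longer called against ND, with log2 fold changes of 4.95 (limma adjusted p = 0.052), 3.47 (limma adjusted p = 0.1) and 3.55 (limma adjusted p = 0.08).

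*Atp6v0d2* (chromosome 4, 19876841 to 19922605), a subunit of the proton pump that acidifies lysosomes, had 0.688, 0.669 and 0.694 FPKM in the ND mice and 15.6, 14.7 and 31.6 FPKM in the LU mice. Its log2 fold change was 3.60 (standard error 0.52, limma adjusted p = 0.0019), and the values of the ND mice differed little among themselves. No ND mouse reached the filter of 1 FPKM in *Atp6v0d2*. It was tested only through other groups, so its difference from ND carries that selection. Among the 10 largest rises were also *Rgs1*, a regulator of G-protein signaling in leukocytes (log2 fold change 3.40), *Adam8*, a metalloprotease of myeloid cells (2.73), *F7*, coagulation factor VII (2.77), and *Tph2*, a tryptophan hydroxylase (2.87). *F7* had at most 0.699 FPKM in the ND mice, so its difference from ND carries the same selection. *Saa3*, an acute-phase protein of adipose tissue, had 0.477, 6.68 and 5.17 FPKM in the ND mice and 25.4, 41.4 and 62.0 FPKM in the LU mice. *Ubd*, a ubiquitin-like protein induced by inflammatory cytokines, had 4.77, 5.30 and 10.8 FPKM in the ND mice and 44.5, 66.2 and 113 FPKM in the LU mice. Neither *Saa3* nor *Ubd* was called between LU and HFD, with log2 differences of -1.29 (95% interval -2.55 to -0.02) and -1.45 (-2.72 to -0.19). The calls of these genes against ND were made in each fit without 1 mouse, apart from *Tph2*, which lost it without ND mouse 2.

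**Figure D1:**
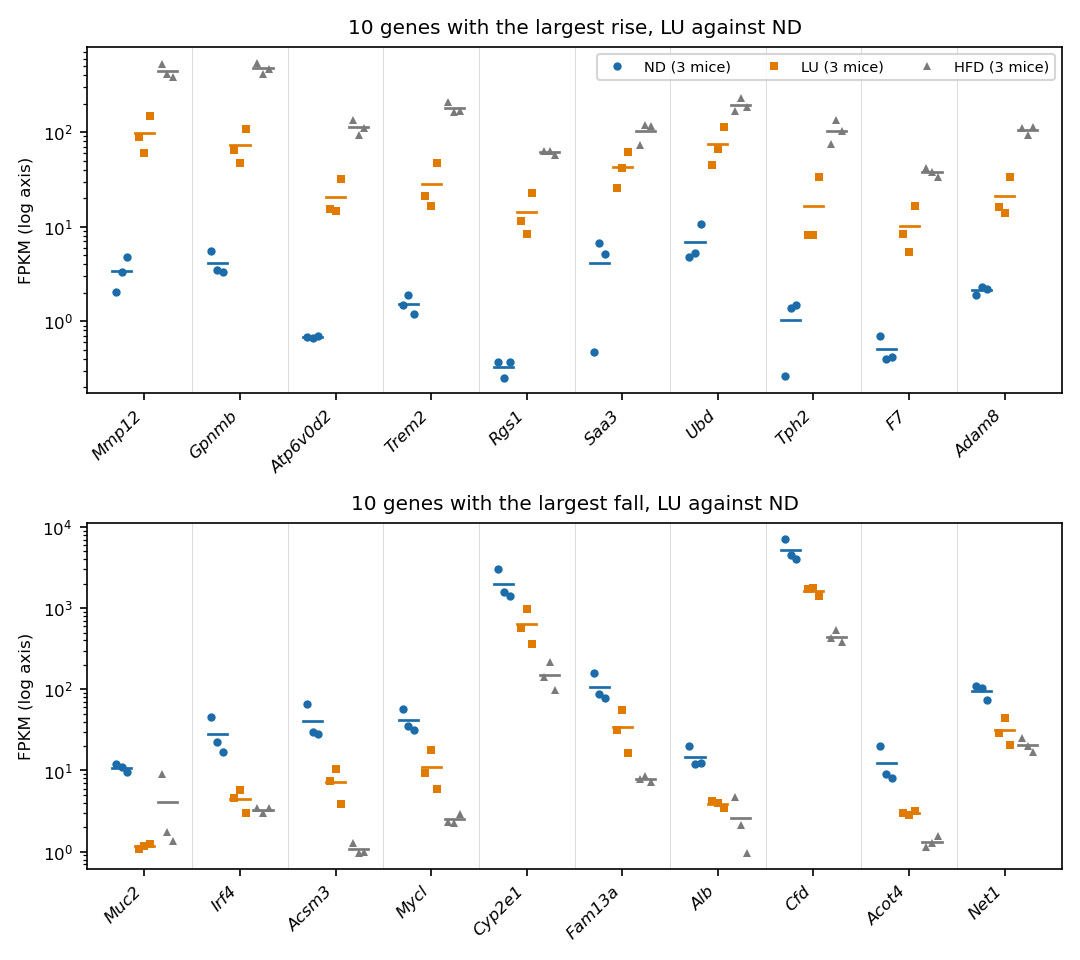
FPKM on a log axis of the 10 genes with the largest rise (top) and the 10 with the largest fall (bottom) in LU against ND, with a point per mouse and a line at each group mean. In every gene the 3 LU mice (squares) lie apart from the 3 ND mice (circles), and in all 10 genes of the top row they lie below the HFD mice (triangles). In the bottom row *Muc2* lies below the HFD mice, and *Irf4*, *Alb* and *Net1* overlap with them.

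Of the 20 genes on the list of lipid-associated macrophages, 13 were called higher and 0 lower, against 4.97% higher over all genes tested. Beyond those above, they included *Itgax* (CD11c, log2 fold change 2.39), *Spp1* (osteopontin, 2.28), *Lgals3* (galectin 3, 1.85), *Ctsk* (cathepsin K, 1.53) and *Lipa* (lysosomal acid lipase, 1.24). *Plin2*, the coat protein of small lipid droplets, had 322, 207 and 265 FPKM in the ND mice and 399.9, 419.9 and 493 FPKM in the LU mice. Its call was lost without ND mouse 3 or LU mouse 8. The 7 members not called were *Apoe*, *Cd36*, *Cd63*, *Cd9*, *Ctsd*, *Fabp5* and *Lpl*, several of which adipocytes express as well. For this list, 9 of these 13 calls were made in each fit without 1 mouse, and 4 without the 4 libraries with the letter R. The median log2 fold change of the list was 1.02 in LU minus ND and 2.23 in HFD minus ND, while the median over all genes was 0.03 in LU minus ND.

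General macrophage genes were also higher. *Adgre1*, which encodes F4/80, had 7.80, 11.5 and 7.34 FPKM in the ND mice and 33.3, 30.7 and 43.0 FPKM in the LU mice, a log2 fold change of 1.90 (standard error 0.23, limma adjusted p = 0.0012). *Cd68*, a lysosomal glycoprotein of macrophages, had 15.8, 16.2 and 12.6 FPKM in the ND mice and 53.9, 51.9 and 88.7 FPKM in the LU mice, a log2 fold change of 2.02 (standard error 0.29, limma adjusted p = 0.0019). *Lyz2* (lysozyme) had 227, 384 and 256 FPKM in the ND mice and 698, 694 and 758 FPKM in the LU mice, with 1.34 (standard error 0.18, limma adjusted p = 0.0016). The groups did not overlap in these genes, and all LU mice lay below all HFD mice, whose *Adgre1* was 164, 131 and 143 FPKM. Of the 20 genes of macrophage identity, 14 rose and 0 fell past the thresholds, against 4.97% higher over all genes tested. The list's median log2 fold change was 1.06, against 2.36 in HFD minus ND. Not called were *Aif1*, *Cd14*, *Cd163*, *Cx3cr1*, *Ly6c2* and *Mertk*, of which *Cd14*, the co-receptor for lipopolysaccharide, had 16.4, 12.6 and 11.1 FPKM in the ND mice and 9.89, 10.6 and 10.5 FPKM in the LU mice. For this list, 13 of these 14 calls were made in each fit without 1 mouse, and 10 without the 4 libraries with the letter R. The summed level of the list was 453 to 649 FPKM in ND, 1176 to 1325 in LU and 2895 to 3289 in HFD. In whole tissue, more cells of a type and more RNA per cell cannot be told apart.

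Genes of antigen presentation by MHC class II were called higher in 9 of 11 cases and lower in 0, against 4.97% higher over all genes tested. *Ciita*, the transactivator of this gene family, had 2.62, 2.92 and 2.49 FPKM in the ND mice and 7.07, 7.50 and 6.86 FPKM in the LU mice, a log2 fold change of 1.15 (standard error 0.10, limma adjusted p = 0.0011). *Cd74*, the invariant chain, had 386, 428 and 327 FPKM in the ND mice and 719, 843 and 728 FPKM in the LU mice, with 1.01 (standard error 0.14, limma adjusted p = 0.0016). *H2-Aa*, an alpha chain, had 211, 252 and 196 FPKM in the ND mice and 414, 493 and 412 FPKM in the LU mice, with 1.00 (standard error 0.13, limma adjusted p = 0.0016). In these genes the 3 mice of a group were close to each other, and LU lay above ND in each. *Ctss*, the protease that cuts the invariant chain, rose most in the list, with a log2 difference of 2.19 (limma adjusted p = 0.0019), followed by *H2-DMb1* (1.44). For this list, 9 of these 9 calls were made in each fit without 1 mouse, and 8 without the 4 libraries with the letter R. The members not called were *H2-DMb2* and *H2-Ob*, which B cells express. The median of the list was 1.01 in LU minus ND and 1.48 in HFD minus ND.

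A part of the genes of the lysosome rose. Of 54 tested, 20 were called higher and 0 lower, against 4.97% higher over all genes tested. Among the called, *Atp6v0d2*, *Ctsb*, *Ctsk*, *Ctsl*, *Lgmn* and *Lipa* are also counted on the list of lipid-associated macrophages. *Cd68* is also counted under macrophage identity and *Ctss* under MHC class II. The 3 LU mice lay above the 3 ND mice in 38 of the 54, against 18.5% over all genes. For this list, 12 of these 20 calls were made in each fit without 1 mouse, and 9 without the 4 libraries with the letter R. The called members covered cathepsins (*Ctss*, *Ctsk*, *Ctsh*, *Ctsl*, *Ctsz* and *Ctsb*), proton pump subunits (*Atp6v0d2*, *Atp6v0a1* and *Atp6v1b2*) and hydrolases of sugar chains and sphingolipids (*Gusb*, *Gla*, *Man2b1*, *Sgsh* and *Hexa*). *Psap*, which encodes the saposins that help degrade sphingolipids, had 765, 832 and 866 FPKM in the ND mice and 1245, 1255 and 1546 FPKM in the LU mice, a log2 fold change of 0.71 (standard error 0.13, limma adjusted p = 0.007). Others of the called members, such as *Cd68*, *Slc11a1* and *Laptm5*, are known from macrophages. *Laptm5*, a lysosomal membrane protein of leukocytes, had 42.9, 49.4 and 31.2 FPKM in the ND mice and 124, 112 and 146 FPKM in the LU mice, with 1.62 (standard error 0.21, limma adjusted p = 0.0016). *Ctsd* (cathepsin D) had 497, 930.1 and 847 FPKM in the ND mice and 996, 1004 and 1232 FPKM in the LU mice and was not called (limma adjusted p = 0.09), although the groups did not overlap. The median of the list was 0.47 in LU minus ND and 0.96 in HFD minus ND. The summed genes of macrophage identity moved with this list, as given above, and their part in the result was not tested.

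Many lysosomal genes carry the CLEAR element, to which the transcription factors TFEB and TFE3 bind, so the promoters were searched for its core. The letters TCACGTG and their reverse complement CACGTGA, which overlap within TCACGTGA, were searched in RefSeq windows of 300 bases of GRCm38.p6, from 250 before to 50 after each start. Of the 54 lysosomal genes tested, 43 had such a window by symbol, and 13 of these held the core (30.2%), against 4.29% of all 27025 genes with a window. Among the lysosomal genes called higher it was found in 3 of 16, and among those not called in 10 of 27. The 250 bases before the start are shown for the 3 called genes that hold the core, with the core in capitals. All 3 lie on the minus strand, *Gla* (alpha-galactosidase A) at chrX:134601006-134601255, *Lgmn* (legumain) at chr12:102439093-102439342 and *Sgsh* (sulfamidase) at chr11:119355511-119355760.
Gla: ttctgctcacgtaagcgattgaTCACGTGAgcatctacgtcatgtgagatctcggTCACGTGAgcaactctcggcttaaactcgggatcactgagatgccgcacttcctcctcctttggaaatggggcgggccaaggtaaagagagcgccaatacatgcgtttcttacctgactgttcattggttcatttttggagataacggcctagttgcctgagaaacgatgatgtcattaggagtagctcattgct
Lgmn: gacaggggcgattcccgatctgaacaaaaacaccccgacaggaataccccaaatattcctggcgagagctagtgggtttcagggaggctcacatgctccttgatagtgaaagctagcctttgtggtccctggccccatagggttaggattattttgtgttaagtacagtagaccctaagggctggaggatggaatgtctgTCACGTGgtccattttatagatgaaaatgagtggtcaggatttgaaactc
Sgsh: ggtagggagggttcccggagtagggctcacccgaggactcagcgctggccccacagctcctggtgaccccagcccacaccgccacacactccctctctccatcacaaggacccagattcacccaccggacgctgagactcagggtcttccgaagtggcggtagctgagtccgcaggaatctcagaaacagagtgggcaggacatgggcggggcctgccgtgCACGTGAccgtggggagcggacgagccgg
*Gla* holds the palindrome at both sites, and *Lgmn* and *Sgsh* hold a single core near the start. *Lgmn* had 43.1, 47.7 and 43.3 FPKM in the ND mice and 103, 104 and 137 FPKM in the LU mice. *Gla* had 2.13, 2.30 and 1.86 FPKM in the ND mice and 3.32, 3.62 and 7.10 FPKM in the LU mice. *Sgsh* had 5.21, 7.14 and 7.64 FPKM in the ND mice and 11.7, 9.29 and 14.0 FPKM in the LU mice. All LU mice lay above all ND mice in the 3 genes, LU mouse 8 was the highest, and the call was made in each fit without 1 mouse for *Lgmn*, in 2 of 6 for *Gla* (lost without LU mouse 8 or any ND mouse) and in 5 of 6 for *Sgsh* (lost without ND mouse 2). A match describes the sequence and does not show binding.

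Genes that recruit and alert leukocytes were higher in part. Of 27 chemokines and chemokine receptors, 11 rose and 0 fell past the thresholds, against 4.97% higher over all genes tested. The list's median log2 fold change was 0.59, against 0.98 in HFD minus ND. For this list, 6 of these 11 calls were made in each fit without 1 mouse. *Ccl9*, a chemokine for monocytes, had 16.1, 21.7 and 18.01 FPKM in the ND mice and 49.7, 60.4 and 68.6 FPKM in the LU mice, a log2 fold change of 1.63 (standard error 0.19, limma adjusted p = 0.0012). *Ccl2*, which encodes MCP-1, had 2.99, 4.42 and 7.65 FPKM in the ND mice and 12.4, 11.1 and 17.2 FPKM in the LU mice, with 1.33 (standard error 0.34, limma adjusted p = 0.027). The groups did not overlap in either gene, but the call of *Ccl2* was lost in 4 of the 6 fits without 1 mouse (without ND mice 2 and 3 and without LU mice 2 and 8). *Ccl8*, another monocyte chemokine, reached 25.9, 33.3 and 20.9 FPKM in LU, where the HFD mice had 17.8, 35.0 and 20.2 FPKM.

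Of 30 genes of cytokines and Toll-like receptor signaling, 12 rose and 0 fell past the thresholds, against 4.97% higher over all genes tested. The median log2 fold change was 0.30, against 0.78 in HFD minus ND. For this list, 7 of these 12 calls were made in each fit without 1 mouse, and 3 without the 4 libraries with the letter R. *Il1rn*, the antagonist of the interleukin 1 receptor, had 0.248, 0.963 and 0.183 FPKM in the ND mice and 7.94, 6.23 and 9.37 FPKM in the LU mice, a log2 fold change of 2.62 (standard error 0.39, limma adjusted p = 0.0024). It passed the filter of 1 FPKM only through groups other than ND, so its difference from ND carries that selection. *Tlr13* and *Tlr8*, endosomal receptors for microbial RNA, rose by 1.68 and 1.64 on the log2 scale (limma adjusted p = 0.0039 and limma adjusted p = 0.0017), and *Lbp*, which carries lipopolysaccharide to its receptor, by 1.33 (limma adjusted p = 0.011, lost without LU mouse 8). *Tlr2* had 1.70, 2.11 and 1.60 FPKM in the ND mice and 2.72, 2.99 and 3.35 FPKM in the LU mice, a log2 fold change of 0.52 (standard error 0.09, limma adjusted p = 0.0045) that lies under the fold threshold. The LU mice lay above the ND mice in these genes. *Tlr4*, the receptor for lipopolysaccharide, had 10.1, 10.97 and 10.7 FPKM in the ND mice and 10.1, 12.7 and 8.77 FPKM in the LU mice, where the HFD mice had 17.0, 14.6 and 13.7 FPKM, a log2 difference of -0.02 (limma adjusted p = 0.94). *Tnf*, which encodes tumor necrosis factor, had 0.318, 0.223 and 0.392 FPKM in the ND mice and 0.426, 0.323 and 0.797 FPKM in the LU mice, with 0.20 (limma adjusted p = 0.45). For *Tlr4* and *Tnf* the mice of the groups overlapped.

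Of 19 complement genes, 11 rose and 2 fell past the thresholds, against 4.97% higher and 1.62% lower over all genes tested. The median log2 fold change was 0.78, against 1.22 in HFD minus ND. *Cfd*, which encodes adipsin (complement factor D), was not on this list and was called lower, with a log2 fold change of -1.65. The members that rose were of several roles: the C1q chains *C1qa*, *C1qb* and *C1qc*, the central component *C3*, *C4b*, factor B (*Cfb*), the inhibitor *Serping1*, the anaphylatoxin receptors *C3ar1* and *C5ar1*, and the integrin chains *Itgam* and *Itgax*. For this list, 11 of these 11 calls were made in each fit without 1 mouse, and 7 without the 4 libraries with the letter R. *C3* had 209, 245 and 212 FPKM in the ND mice and 431, 302 and 419.6 FPKM in the LU mice, where the HFD mice had 895, 853 and 861 FPKM, a log2 fold change of 0.77 (standard error 0.14, limma adjusted p = 0.0046). *C3ar1* had 3.45, 3.85 and 2.89 FPKM in the ND mice and 13.1, 10.9 and 17.0 FPKM in the LU mice, with 1.73 (standard error 0.25, limma adjusted p = 0.0021). The groups did not overlap in either gene. *C6*, a part of the membrane attack complex, and *C2*, a component of the classical pathway, fell by 0.82 and 0.66 on the log2 scale, and neither call was made in all fits without 1 mouse (*C6* in 2 and *C2* in 5 of 6, both lost without LU mouse 8). Interferon response genes showed no call in limma among 22 tested (0 higher and 0 lower, and 3 higher and 0 lower at an unadjusted p under 0.05), with a median of 0.02.

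Part of the extracellular matrix genes rose. Of 25 collagen genes, 11 rose and 0 fell past the thresholds, against 4.97% higher over all genes tested. The list's median log2 fold change was 0.47 in LU minus ND and 0.86 in HFD minus ND. For this list, 4 of these 11 calls were made in each fit without 1 mouse. *Col1a1*, a chain of the main fibrillar collagen, had 37.1, 39.4 and 51.7 FPKM in the ND mice and 81.2, 106 and 101 FPKM in the LU mice, a log2 fold change of 1.15 (standard error 0.17, limma adjusted p = 0.0019). *Col6a1*, a chain of the collagen that surrounds adipocytes, had 63.3, 110.0 and 116 FPKM in the ND mice and 190.4, 176 and 235 FPKM in the LU mice, with 1.09 (standard error 0.23, limma adjusted p = 0.011). *Col16a1* rose most, from 2.202, 4.35 and 7.91 FPKM in the ND mice to 20.0, 18.4 and 41.0 FPKM in the LU mice, with 2.27 (standard error 0.40, limma adjusted p = 0.0046). Its HFD values of 27.3, 31.5 and 31.7 FPKM lay within the range of the LU mice. ND mouse 2 had the lowest value in each of these genes and in *Col12a1* and *Col3a1*. Without the 4 libraries with the letter R it is the only ND mouse left. The log2 fold changes then rest on this lowest mouse, and were 1.45 for *Col1a1*, 1.67 for *Col6a1* and 3.16 for *Col16a1*. The call of *Col6a1* was lost without LU mouse 8, and those of *Col12a1* and *Col3a1* without LU mouse 2, LU mouse 8, ND mouse 2 and 1 further mouse each. *Col6a2* and *Col6a3* rose as well, by 1.08 and 0.91 on the log2 scale, and *Col6a2* lost its call without ND mouse 2, LU mouse 2 or LU mouse 8.

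Among 30 genes of matrix remodelling, 11 were called higher and 0 lower, against 4.97% higher over all genes tested. Besides *Mmp12*, *Adam8* and *Spp1*, these were *Timp1*, an inhibitor of metalloproteases (0.487, 1.68 and 1.37 FPKM in the ND mice and 2.68, 4.88 and 5.64 FPKM in the LU mice), the metalloprotease *Mmp3*, and the matrix proteins *Sparc*, *Fbln2*, *Lum*, *Bgn*, *Postn* and *Fn1*. The call of *Postn* was lost in all 6 fits without 1 mouse and that of *Fn1* in 3 (without ND mouse 2 and LU mice 2 and 3). For this list, 8 of these 11 calls were made in each fit without 1 mouse, and 5 without the 4 libraries with the letter R. *Sparc* had 1465, 1707 and 2180.4 FPKM in the ND mice and 2943, 3005 and 3952 FPKM in the LU mice, a log2 fold change of 0.89 (standard error 0.17, limma adjusted p = 0.0065), and the HFD mice had 3877, 3774 and 3921 FPKM. *Dcn* (decorin) had 724, 639 and 471 FPKM in the ND mice and 551, 490.0 and 409 FPKM in the LU mice and was not called (limma adjusted p = 0.31). Genes that mark adipose progenitors and fibroblasts gave 0 calls in limma among 16 tested, with 3 higher and 1 lower at an unadjusted p under 0.05 and a median of 0.11. Endothelial genes also gave 0 calls among 16, with 0 higher and 3 lower at an unadjusted p under 0.05 and a median of 0.05. Their summed level was 992 to 1339 FPKM in ND and 1149.7 to 1167 FPKM in LU.

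Several of the 10 genes with the largest falls are known from adipocytes or from fatty acid metabolism. *Irf4* (chromosome 13, 30749226 to 30766976), a transcription factor that adipocytes use in lipid handling and that is also known from lymphocytes, had 46.1, 22.3 and 16.9 FPKM in the ND mice and 4.57, 5.67 and 2.98 FPKM in the LU mice, a log2 fold change of -2.35 (standard error 0.31, limma adjusted p = 0.0016). Its level in HFD was 3.41, 3.03 and 3.47 FPKM, and LU minus HFD was 0.30 (95% interval -0.38 to 0.98). *Acsm3* (chromosome 7, 119760923 to 119787513), an acyl-CoA synthetase of mitochondria, had 65.2, 29.9 and 28.4 FPKM in the ND mice and 7.42, 10.5 and 3.91 FPKM in the LU mice, with -2.33 (standard error 0.46, limma adjusted p = 0.0086). *Cfd* (chromosome 10, 79890853 to 79892655), which encodes adipsin, had 7206, 4560.3 and 3999 FPKM in the ND mice and 1723, 1754 and 1416 FPKM in the LU mice, with -1.65 (standard error 0.23, limma adjusted p = 0.0017). ND mouse 2 had the highest value in each of these 3 genes, all LU mice lay below all ND mice, and the calls were made in each fit without 1 mouse. Without the 4 libraries with the letter R, ND mouse 2 is the only ND mouse left. The log2 fold changes then rest on this highest mouse, and were -3.19 for *Irf4*, -3.14 for *Acsm3* and -2.19 for *Cfd*.

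*Cyp2e1*, a cytochrome P450 that is high in mature adipocytes, had 3047, 1581 and 1405 FPKM in the ND mice and 566, 972 and 363 FPKM in the LU mice (log2 fold change -1.69, standard error 0.42, limma adjusted p = 0.022). *Fam13a*, a gene tied to fat distribution, had 157, 86.7 and 77.2 FPKM in the ND mice and 31.2, 56.3 and 16.7 FPKM in the LU mice (log2 fold change -1.69, standard error 0.46, limma adjusted p = 0.034). LU mouse 3 had the highest level of its group in both genes, and the calls were lost without ND mouse 2, LU mouse 2 or LU mouse 8, and for *Fam13a* also without ND mouse 3. *Mycl*, a member of the MYC family, *Acot4*, a peroxisomal thioesterase, and *Net1*, an exchange factor for RhoA, fell by 1.89, 1.64 and 1.64 on the log2 scale and were called in each of these fits. *Alb* (albumin) had 19.8, 12.2 and 12.2 FPKM in the ND mice and 4.22, 3.97 and 3.42 FPKM in the LU mice, lost its call without ND mouse 2 or LU mouse 8, and was the 1 gene called among 8 tested on the list of liver genes. *Muc2*, a mucin of the gut, had 11.99, 11.01 and 9.65 FPKM in the ND mice and 1.06, 1.16 and 1.25 FPKM in the LU mice, but 9.06, 1.75 and 1.37 FPKM in the HFD mice, and its call was lost in 5 of the 6 fits without 1 mouse (it held without ND mouse 4).

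Genes of adipocyte identity were for the most part not called. Of 16 tested, 1 was called higher (*Lep*) and 2 lower (*Cfd* and *Retn*), against 4.97% higher and 1.62% lower over all genes tested. The list's median log2 fold change was -0.18, against -0.65 in HFD minus ND. *Adipoq*, which encodes adiponectin, had 1866, 2292 and 2249.8 FPKM in the ND mice and 1975, 1883 and 1629 FPKM in the LU mice, a log2 difference of -0.22 (95% interval -0.49 to 0.05, limma adjusted p = 0.27). *Pparg*, the master transcription factor of adipocytes, had 91.7, 111 and 73.1 FPKM in the ND mice and 80.7, 100.4 and 86.5 FPKM in the LU mice, with -0.03 (-0.32 to 0.26, limma adjusted p = 0.92). *Fabp4*, the fatty acid binding protein of adipocytes, had 19234, 19751 and 20210.2 FPKM in the ND mice and 15189, 19943 and 17332 FPKM in the LU mice, with -0.18 (-0.40 to 0.03, limma adjusted p = 0.26). The groups overlapped in all 3. The summed level of the list was 50971 to 52926 FPKM in ND, 39826 to 46811 in LU and 27501 to 30585 in HFD. Of 16 adipogenic transcription factors, 0 were called by limma, with 0 higher and 4 lower at an unadjusted p under 0.05.

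Among 18 adipokines, 3 were called higher and 3 lower, against 4.97% higher and 1.62% lower over all genes tested. *Lep* (chromosome 6, 29060220 to 29073877), the satiety hormone, had 194, 248 and 302 FPKM in the ND mice and 500.1, 410.2 and 806 FPKM in the LU mice, a log2 fold change of 1.17 (standard error 0.23, limma adjusted p = 0.0079). All LU mice lay between the ND and the HFD mice, the latter at 1172, 1271 and 1291 FPKM. *Sfrp5*, a secreted inhibitor of Wnt signaling, and *Metrnl*, a secreted protein of fat and muscle, also rose, by 1.84 and 0.94 on the log2 scale. *Retn* (resistin) had 1018, 1692 and 1233 FPKM in the ND mice and 749.8, 972 and 627 FPKM in the LU mice, with -0.74 (standard error 0.22, limma adjusted p = 0.049), and lost its call in 4 of the 6 fits without 1 mouse (without ND mice 3 and 4 and LU mice 2 and 8). *Nrg4*, a secreted ligand of ErbB4, fell by 0.85 and lost its call without ND mouse 2, LU mouse 2 or LU mouse 8. *Adipor2*, a receptor of adiponectin, had 479.7, 444 and 378 FPKM in the ND mice and 301, 353 and 275 FPKM in the LU mice, a log2 difference of -0.49 (limma adjusted p = 0.035) that lies under the fold threshold. *Adipor1*, the other receptor, had 77.9, 70.8 and 75.4 FPKM in the ND mice and 69.9, 71.4 and 74.8 FPKM in the LU mice (limma adjusted p = 0.69).

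De novo lipogenesis, the making of fatty acids from glucose, was lower in part. Of 20 genes, 5 were called lower and 0 higher, against 1.62% lower over all genes tested. *Acaca* (chromosome 11, 84129672 to 84401651), which encodes acetyl-CoA carboxylase 1, the enzyme that commits acetyl-CoA to fatty acids, had 141, 214 and 126 FPKM in the ND mice and 68.8, 70.03 and 61.3 FPKM in the LU mice, a log2 fold change of -1.22 (standard error 0.20, limma adjusted p = 0.0034). *Acacb*, the mitochondrial form of the enzyme, had 106, 48.3 and 54.0 FPKM in the ND mice and 23.0, 32.9 and 27.5 FPKM in the LU mice, with -1.21 (standard error 0.26, limma adjusted p = 0.012). *Fasn*, fatty acid synthase, had 376, 913 and 529 FPKM in the ND mice and 251, 275 and 304 FPKM in the LU mice, with -1.04 (standard error 0.29, limma adjusted p = 0.037). The LU mice lay below every ND mouse in the 3 genes. ND mouse 3 was the highest in *Acaca* and *Fasn* and ND mouse 2 in *Acacb*. The call of *Fasn* was lost in 5 of the 6 fits without 1 mouse and held without ND mouse 2, while *Acaca* and *Acacb* were called in all 6. Without the 4 libraries with the letter R, ND mouse 2 is the only ND mouse left. The log2 fold changes were then -1.78 for *Acacb*, -1.09 for *Acaca* and -0.38 for *Fasn*.

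*Tkt* (transketolase of the pentose phosphate pathway) and *Slc25a1* (the mitochondrial citrate carrier) fell by 1.01 and 0.87 on the log2 scale, and *Slc25a1* lost its call without ND mouse 3, LU mouse 2 or LU mouse 8. In HFD minus ND, 3 higher and 4 lower calls were made in this list, which includes *Scd1*. *Scd1*, stearoyl-CoA desaturase, is listed at 0 in all ND and LU libraries and at 9764, 10168 and 8592 FPKM in the HFD mice, so no fold is given. An exact 0 in a file of estimated FPKM can be a failed estimate. *Srebf1*, the transcription factor that drives lipogenic genes, had 137, 183 and 129 FPKM in the ND mice and 155, 146 and 148 FPKM in the LU mice and was not called (limma adjusted p = 0.98). The letters TCACNCCAC of the sterol regulatory element or their reverse complement were found in 0 of the 5 promoter windows of the called lipogenic genes, against 1.44% of all genes with a window. Among the lipogenic genes not called they were found in 1 of 12. At so low a share, 5 windows are too few to tell the called genes from other genes.

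Of 24 genes of fatty acid uptake and triglyceride synthesis, 0 were called higher and 3 lower, against 1.62% lower over all genes tested. *Pck1*, which makes the glycerol backbone of triglycerides in adipocytes, had 2575, 2199 and 2211 FPKM in the ND mice and 1463, 1448 and 1178 FPKM in the LU mice, a log2 fold change of -0.78 (standard error 0.18, limma adjusted p = 0.018). *Mogat1*, a monoacylglycerol acyltransferase, had 41.5, 42.0 and 31.9 FPKM in the ND mice and 15.7, 19.8 and 12.7 FPKM in the LU mice, with -1.22 (standard error 0.27, limma adjusted p = 0.013). *Ffar4*, the fatty acid receptor GPR120, had 18.1, 25.2 and 20.3 FPKM in the ND mice and 13.0, 14.5 and 9.68 FPKM in the LU mice, with -0.73 (standard error 0.16, limma adjusted p = 0.014). All LU mice lay below all ND mice and above all HFD mice in the 3 genes, and the 3 calls were lost without LU mouse 8, that of *Pck1* also without ND mouse 2. Without the 4 libraries with the letter R none of the 3 was called, with log2 fold changes of -0.98 (limma adjusted p = 0.1) for *Pck1*, -1.33 (limma adjusted p = 0.13) for *Mogat1* and -0.57 (limma adjusted p = 0.22) for *Ffar4*. *Lpl*, lipoprotein lipase, had 3517, 4237 and 3646 FPKM in the ND mice and 3238, 3497 and 3665 FPKM in the LU mice (limma adjusted p = 0.49).

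Of 18 genes of lipolysis and the lipid droplet, 1 was called higher (*Plin2*) and 2 lower (*Cidea* and *Pde3b*). Over all genes tested, 4.97% were called higher and 1.62% lower. *Pnpla2*, adipose triglyceride lipase, had 1763, 1230.0 and 1364 FPKM in the ND mice and 1034, 1198 and 1003 FPKM in the LU mice. *Plin1*, which encodes perilipin, had 850.0, 849 and 753 FPKM in the ND mice and 641, 693 and 605 FPKM in the LU mice. In both, every LU mouse lay below every ND mouse, with log2 fold changes of -0.42 (limma adjusted p = 0.081) and -0.34 (limma adjusted p = 0.11) that were not called. The HFD mice lay lower still, at 809, 771 and 704 FPKM for *Pnpla2* and 433, 509.8 and 435 FPKM for *Plin1*. The median of the list was -0.19 in LU minus ND and -0.70 in HFD minus ND. Of 26 genes of fatty acid oxidation, 0 were called higher and 2 lower. The list's median was -0.13 in LU minus ND and -0.28 in HFD minus ND. The genes called were *Ehhadh*, a bifunctional enzyme of peroxisomal oxidation (43.9, 38.0 and 38.2 FPKM in the ND mice and 13.8, 26.7 and 19.0 FPKM in the LU mice), and *Acot2*, a mitochondrial thioesterase (27.0, 18.8 and 16.6 FPKM in the ND mice and 9.63, 10.6 and 10.7 FPKM in the LU mice). *Acadl* and *Cpt2*, further enzymes of this pathway, had log2 fold changes of -0.10 and -0.15 and were not called.

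Of 34 genes of insulin signaling and glucose transport, 0 were called higher and 4 lower, against 4.97% higher and 1.62% lower over all genes tested. *Irs1*, the adaptor that passes the signal on from the insulin receptor, had 8.53, 7.77 and 7.02 FPKM in the ND mice and 3.65, 5.72 and 2.76 FPKM in the LU mice, a log2 fold change of -0.84 (standard error 0.17, limma adjusted p = 0.0087). *Pik3r1*, the regulatory subunit of PI 3-kinase, had 33.7, 56.5 and 31.3 FPKM in the ND mice and 21.1, 30.1 and 20.6 FPKM in the LU mice, with -0.71 (standard error 0.21, limma adjusted p = 0.048). *Pde3b*, the phosphodiesterase through which insulin restrains lipolysis, had 208, 169 and 140.5 FPKM in the ND mice and 116, 128 and 88.9 FPKM in the LU mice, with -0.63 (standard error 0.18, limma adjusted p = 0.038). The groups did not overlap in the 3 genes. *Irs1* was called in each fit without 1 mouse, and *Pik3r1* and *Pde3b* lost the call without ND mouse 2, ND mouse 3, LU mouse 2 or LU mouse 8. Without the 4 libraries with the letter R, 0 of the 4 were called, with log2 fold changes of -0.92 (limma adjusted p = 0.11) for *Irs1*, -0.42 (limma adjusted p = 0.26) for *Pik3r1* and -0.96 (limma adjusted p = 0.084) for *Pde3b*. The HFD mice had 2.91, 2.93 and 2.90 FPKM of *Irs1*, within the range of LU. The median of the list was -0.09 in LU minus ND and -0.30 in HFD minus ND.

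Among 17 receptors for adrenergic signals and metabolites, 4 were called lower and 1 higher, against 1.62% lower and 4.97% higher over all genes tested. *Adrb3*, the beta-3 adrenergic receptor of adipocytes, had 593, 749 and 581 FPKM in the ND mice and 295, 459 and 208 FPKM in the LU mice, a log2 fold change of -1.06 (standard error 0.29, limma adjusted p = 0.033), and 82.4, 127 and 82.3 FPKM in the HFD mice. Its call held only in the fit without LU mouse 3 among the 6 fits without 1 mouse. *Lepr*, the leptin receptor, fell by 0.66 and lost its call without ND mouse 2 or LU mouse 8. *Adra1a*, the alpha-1A receptor, rose by 0.69 (limma adjusted p = 0.0044) and lost its call without ND mouse 2. Of 15 thermogenic genes, 3 were called lower, among them *Cidea* and *Adrb3*, and 0 higher. *Cidea*, a lipid droplet protein of brown and beige adipocytes, had 5.94, 3.99 and 3.25 FPKM in the ND mice and 1.69, 1.26 and 0.914 FPKM in the LU mice, with -1.22 (standard error 0.20, limma adjusted p = 0.0038). *Cox8b*, a subunit of cytochrome c oxidase in brown fat, had 17.0, 20.5 and 15.6 FPKM in the ND mice and 15.5, 28.3 and 20.4 FPKM in the LU mice. *Ppargc1a*, a coactivator of mitochondrial genes, had 2.44, 2.65 and 1.23 FPKM in the ND mice and 3.32, 1.301 and 1.10 FPKM in the LU mice. The groups overlapped in both, and *Ucp1* lay under the filter, with at most 0.460 FPKM in any of the 12 libraries.

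Branched-chain amino acid catabolism, which mature adipocytes carry out, had 5 of 21 genes called lower and 1 higher. Over all genes tested, 1.62% were called lower and 4.97% higher. In 17 of the 21 the LU mice lay below the ND mice, against 11.6% over all genes. The falls called were small, from -0.67 for *Mccc2*, a subunit of methylcrotonyl-CoA carboxylase, to -0.59 for *Ivd*, isovaleryl-CoA dehydrogenase. *Mccc2* had 63.8, 58.7 and 52.4 FPKM in the ND mice and 37.5, 36.3 and 34.5 FPKM in the LU mice (limma adjusted p = 0.003). *Bcat2*, the mitochondrial transaminase at the head of the pathway, had 35.0, 49.1 and 36.9 FPKM in the ND mice and 28.5, 24.6 and 21.5 FPKM in the LU mice (limma adjusted p = 0.017). *Mccc2* was the 1 of the 5 that was called in each fit without 1 mouse, and the others were all lost without LU mouse 8. *Abat*, the transaminase of GABA, was the member called higher, with 17.99, 17.0 and 29.0 FPKM in the ND mice and 44.1, 37.2 and 51.9 FPKM in the LU mice. The list had a median of -0.44 in LU minus ND and -0.78 in HFD minus ND.

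Oxidative phosphorylation gave 0 calls in limma among 76 genes, while 0 higher and 30 lower had an unadjusted p under 0.05. An adjusted p under 0.05 with a change under the fold threshold was found for 14, all lower. Over all 12775 genes tested, 3542 had an unadjusted p under 0.05 in either direction, and 526 were lower at an adjusted p under 0.05. The fold change was positive in 5 of the 76, and the median was -0.22, against -0.65 in HFD minus ND. *Cox8a*, a subunit of cytochrome c oxidase, had 511, 657 and 563 FPKM in the ND mice and 428, 556 and 461 FPKM in the LU mice. *Atp5b*, a subunit of ATP synthase, had 1710.0, 1653 and 1407 FPKM in the ND mice and 1149.8, 1349 and 1199 FPKM in the LU mice. The groups overlapped in *Cox8a* and not in *Atp5b*. The 78 mitochondrial ribosomal proteins also gave 0 calls, with 0 higher and 13 lower at an unadjusted p under 0.05 and a median of -0.12. Of 31 genes of glutathione and NRF2, 3 were called higher and 4 lower, against 4.97% higher and 1.62% lower over all genes tested. The list's median was -0.04 in LU minus ND and -0.36 in HFD minus ND. *Gpx3*, the secreted glutathione peroxidase, had 482, 393 and 322 FPKM in the ND mice and 179, 199 and 112 FPKM in the LU mice (log2 fold change -1.30, standard error 0.24, limma adjusted p = 0.0059). *Gsta4*, a glutathione transferase, had 21.2, 26.8 and 22.3 FPKM in the ND mice and 9.64, 11.4 and 7.16 FPKM in the LU mice (log2 fold change -1.25, standard error 0.21, limma adjusted p = 0.0044). *Hmox1*, heme oxygenase 1, which macrophages also express, had 13.3, 12.7 and 13.3 FPKM in the ND mice and 25.5, 26.9 and 28.8 FPKM in the LU mice (log2 fold change 0.99, standard error 0.13, limma adjusted p = 0.0016). The HFD mice had 76.8, 61.2 and 59.1 FPKM of *Gpx3* and 65.8, 55.2 and 53.8 FPKM of *Hmox1*, so LU lay between ND and HFD in both.

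**Figure D2:**
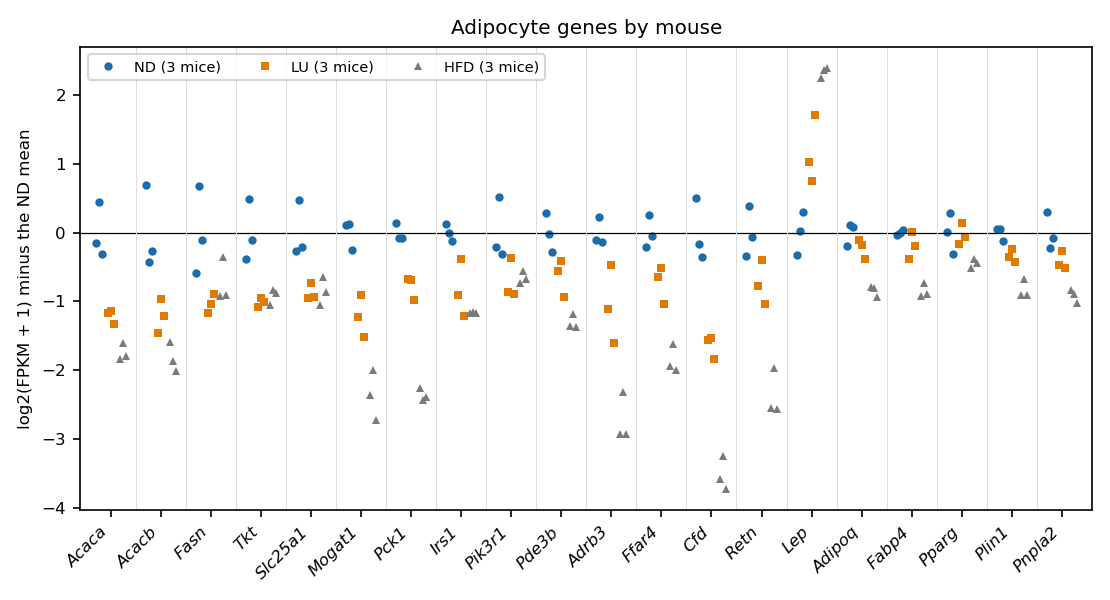
log2(FPKM + 1) of 20 adipocyte genes by mouse, as the difference from the ND mean of the gene, with circles for ND, squares for LU and triangles for HFD. The LU mice lie below every ND mouse in *Acaca*, *Acacb*, *Fasn*, *Tkt*, *Irs1* and *Cfd*, overlap with the HFD mice in *Fasn*, *Tkt* and *Irs1*, and overlap with the ND mice in *Pparg* and *Fabp4*.

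Some genes in LU mice lay near the level of HFD mice without luteolin. They were picked among genes called over 2-fold against ND for the smallest difference from HFD, so that difference is a description. The 5 picked among the genes called higher were *Sfrp5*, *Syp*, *Stambpl1*, *C4b* and *Serpinf1*. *Sfrp5* had 59.0, 46.6 and 137 FPKM in the ND mice and 219, 242 and 335 FPKM in the LU mice, and 285, 235 and 235 FPKM in the HFD mice, a log2 difference from HFD of 0.06 (95% interval -0.63 to 0.75). *C4b*, a complement component, had 135, 188 and 197 FPKM in the ND mice and 352, 327 and 436 FPKM in the LU mice, and 380.4, 394 and 329 FPKM in the HFD mice, with 0.01 (-0.37 to 0.39). *Serpinf1*, which encodes the secreted factor PEDF, had 49.5, 75.8 and 97.2 FPKM in the ND mice and 158, 146 and 150.4 FPKM in the LU mice, and 156, 160.0 and 148 FPKM in the HFD mice, with -0.03 (-0.43 to 0.37). For the 3 genes the LU and HFD mice overlapped, and every ND mouse lay below both. Against ND the log2 fold changes were 1.84 (standard error 0.32, limma adjusted p = 0.0044), 1.11 (standard error 0.17, limma adjusted p = 0.003) and 1.07 (standard error 0.18, limma adjusted p = 0.0044), and each was called without any 1 mouse.

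The 5 picked among the genes called lower were *Nabp1*, *Cidea*, *H2-Q10*, *Ehhadh* and *Tkt*. *Tkt* had 142, 261 and 173 FPKM in the ND mice and 86.9, 96.0 and 92.1 FPKM in the LU mice, and 89.3, 103 and 101 FPKM in the HFD mice, a log2 difference from HFD of -0.09 (95% interval -0.50 to 0.32). *H2-Q10*, a class I gene of the MHC, had 17.6, 15.4 and 10.7 FPKM in the ND mice and 5.37, 7.39 and 5.60 FPKM in the LU mice, and 5.03, 5.50 and 5.70 FPKM in the HFD mice, with 0.14 (-0.28 to 0.56). *Cidea* had 1.66, 0.981 and 0.770 FPKM in the HFD mice, with 0.11 (-0.34 to 0.55). The LU mice overlapped with the HFD mice and not with the ND mice in all 3. *H2-Q10* shares much of its sequence with other class I genes, which may make its FPKM uncertain, and it was not called when the highest transcript was used in place of the sum. *Nabp1* (log2 fold change -1.27) and *Ehhadh* (-1.02) lost their calls against ND without ND mouse 2, LU mouse 2 or LU mouse 8, and *Nabp1* also without ND mouse 3.

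Other genes lay above both ND and HFD in the LU mice and were called in both comparisons, which chose them. The 5 with the largest such difference were *Nup210*, *Ccn1*, *Atp2a3*, *Spsb1* and *Hspb1*, and no gene was called lower than both. Over all genes tested, 4.81% were called higher in LU than in HFD. *Nup210*, a protein of the nuclear pore, had 6.67, 6.25 and 12.3 FPKM in the ND mice and 23.3, 22.8 and 26.1 FPKM in the LU mice and 12.1, 11.1 and 14.1 FPKM in the HFD mice. *Atp2a3*, a calcium pump of the endoplasmic reticulum, had 30.9, 27.8 and 39.6 FPKM in the ND mice and 54.7, 49.7 and 56.3 FPKM in the LU mice and 25.8, 29.3 and 32.0 FPKM in the HFD mice. *Hspb1*, a small heat shock protein, had 44.0, 39.6 and 48.7 FPKM in the ND mice and 61.2, 75.8 and 64.3 FPKM in the LU mice and 39.3, 41.6 and 38.3 FPKM in the HFD mice. The lowest LU mouse exceeded the highest ND and HFD mouse in each of these genes. The log2 difference of LU from ND and from HFD was 1.47 and 0.90 for *Nup210*, 0.71 and 0.87 for *Atp2a3*, and 0.59 and 0.74 for *Hspb1*. Without 1 mouse, *Nup210* and *Atp2a3* kept their call against ND in all 6 fits, and *Hspb1*, *Ccn1* and *Spsb1* in 4, 3 and 2 of them.

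**Figure D3:**
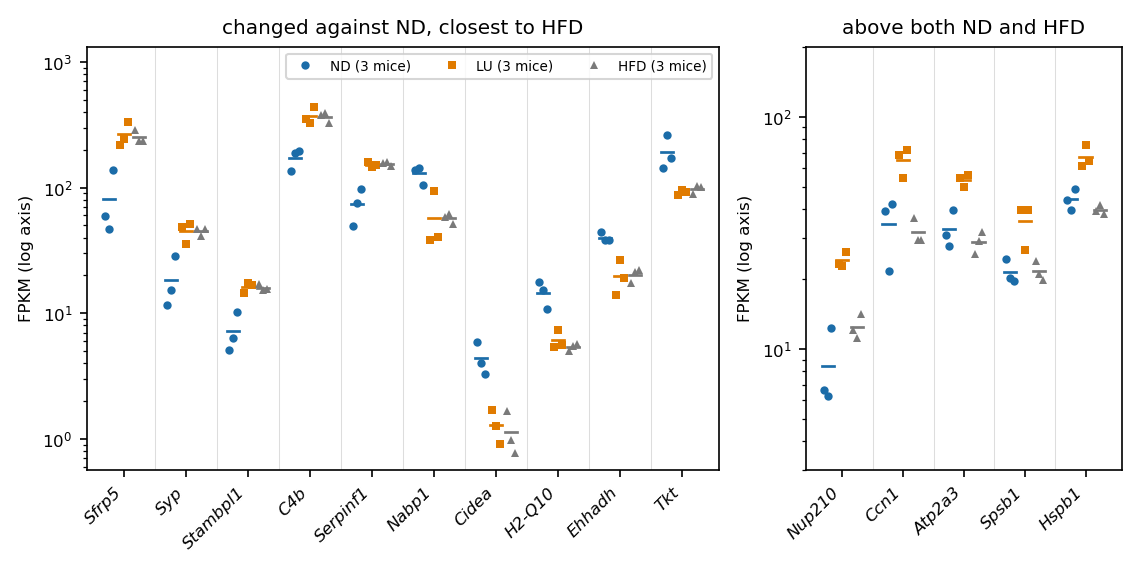
FPKM on a log axis, by mouse, of the 10 genes changed against ND and closest to HFD (left) and the 5 genes above both ND and HFD (right), with a line at each group mean. On the left the LU mice (squares) lie among or beside the HFD mice (triangles), and on the right they lie above the HFD mice and the ND mice (circles).

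Markers of further cell types were counted in the same way. Of 11 genes of T and NK cells, 2 were called higher (*Il7r* and *Xcl1*), of 6 genes of dendritic cells 1 (*Clec9a*), of 4 of B cells 1 (*Ighm*) and of 4 of neutrophils 1 (*S100a8*). None of these lists had a call lower, and over all genes tested 4.97% were called higher. Of the called genes of these lists *Il7r*, the interleukin 7 receptor, was called in each fit without 1 mouse. *Xcl1* passed the filter of 1 FPKM only through LU and HFD mice. The list medians of LU minus ND were 0.36 for T and NK cells, 0.35 for dendritic cells, -0.50 for B cells and -0.02 for neutrophils. In the lists of B cells and neutrophils, the fold change was positive in 2 of the 4 genes each. *S100a8* had 4.84, 11.5 and 14.1 FPKM in the ND mice and 20.2, 28.2 and 53.0 FPKM in the LU mice and lost its call without ND mouse 2 or LU mouse 8. Mast cell genes gave 0 calls among 6 and 0 higher and 0 lower at an unadjusted p under 0.05. Cell cycle genes had a positive fold change in 24 of 25, and 16 were higher and 0 lower at an unadjusted p under 0.05. Over all genes tested, 3542 of 12775 had such a p in either direction. The median of the cell cycle genes was 0.44 in LU minus ND and 1.18 in HFD minus ND. The 2 of them called higher were *Cdk1* and *Mki67*, against 4.97% over all genes tested. *Mki67*, the proliferation marker, had 0.769, 1.12 and 1.61 FPKM in the ND mice and 2.10, 2.30 and 2.77 FPKM in the LU mice, and the calls of both were lost without ND mouse 2 or LU mouse 8. Of 17 immediate early and stress genes, 4 were called higher (*Atf3*, *Egr2*, *Fos* and *Hspa5*), against 4.97% over all genes tested. None of them was called in all 6 fits without 1 mouse, and 3 of them not without LU mouse 8 (*Atf3*, *Egr2* and *Fos*). *Egr2* passed the filter of 1 FPKM only through groups other than ND.

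*Soat1*, which esterifies cholesterol in macrophages, and the transporter *Abcg3* were the 2 genes called higher among 12 of cholesterol efflux, and *Hsd17b7* the 1 called among 20 of cholesterol synthesis and uptake. For these and the following lists, the shares over all genes tested were 4.97% called higher and 1.62% lower. The call of *Abcg3* was lost in 5 of the 6 fits without 1 mouse. Of 16 clock genes, 0 were called higher and 1 lower. Of 16 genes tied to the expansion of fat, *Tph2* and *Sfrp5* were called higher and *Mycl* and *Fam13a* lower. The summed mesothelial genes were 17.3 to 81.3 FPKM in ND and 16.5 to 22.6 in LU, with 1 of 9 called lower (*Lrrn4*, lost in 5 of the 6 fits), and ND mouse 4 was the highest. Summed hemoglobin and other blood genes were 571 to 2290.1 FPKM in ND, with ND mouse 3 the highest, and 447 to 741 in LU, and gave 0 calls among 5 and 0 higher and 0 lower at an unadjusted p under 0.05. Summed liver genes were 2219 to 2536 FPKM in ND and 1523 to 1640.3 in LU. *Alb* made up at most 19.8 FPKM of this sum in ND and 4.22 in LU, so nearly all of it came from other members. Summed skeletal muscle genes were 23.2 to 28.1 FPKM in ND and 17.0 to 20.2 in LU. Of the 2 muscle genes tested, *Myl1* was called lower, lost without ND mouse 3, and *Pvalb* higher, lost in all 6 fits without 1 mouse. The part of these tissues in the results was not tested. Lymph node stroma (2 tested) and epididymis and testis (1 tested) gave 0 calls and 0 genes at an unadjusted p under 0.05.

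**Figure D4:**
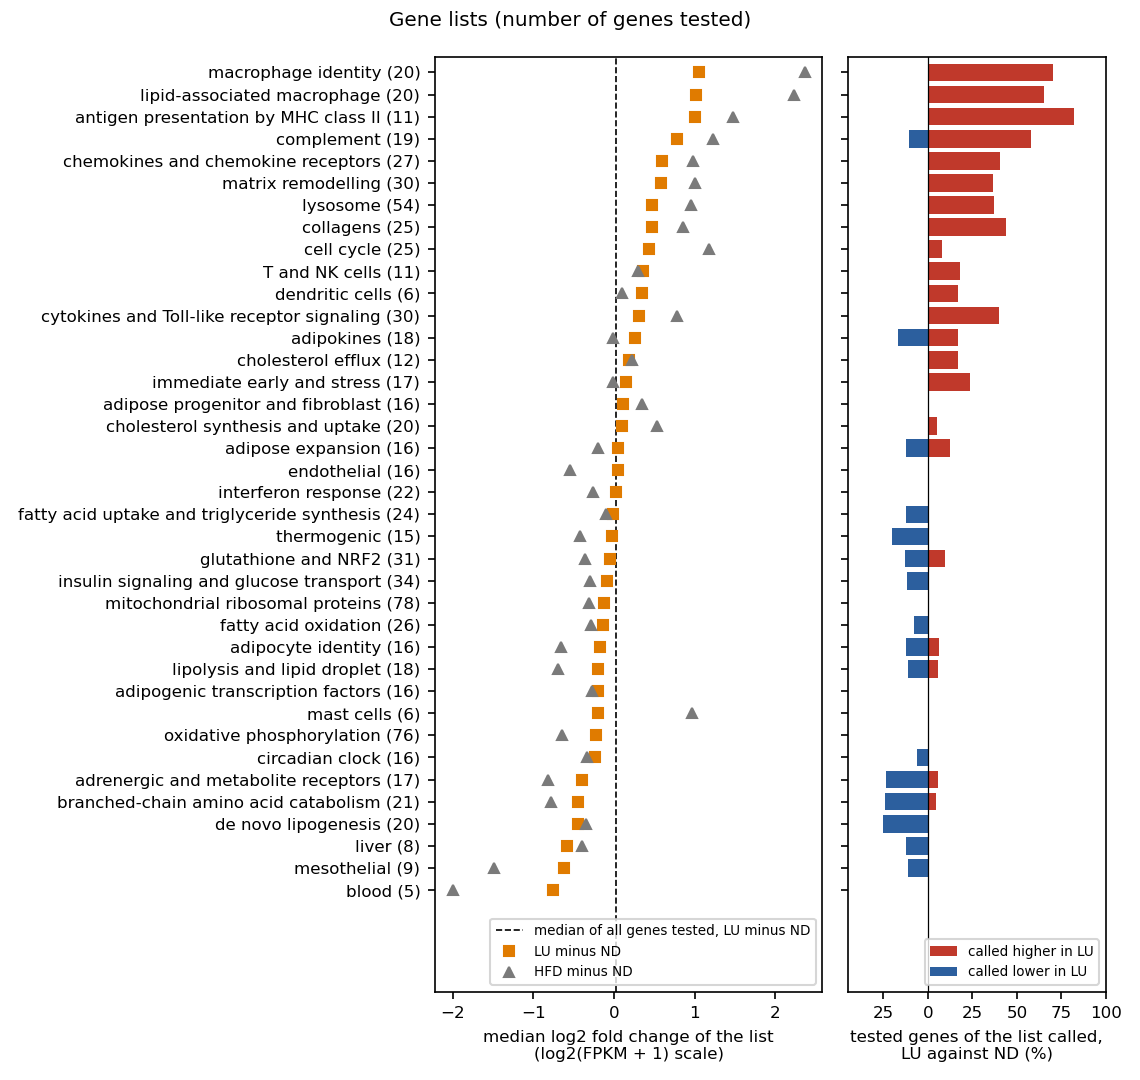
Left, the median log2 fold change of each gene list with at least 5 genes tested, for LU minus ND (squares) and HFD minus ND (triangles), with a dashed line at the LU minus ND median of all genes (0.03). Right, the percentage of each list's tested genes called higher (red) or lower (blue) in LU against ND. The lists of macrophages, MHC class II and complement stand at the top with medians between 0.78 and 1.06, and their HFD medians are higher still. The comparisons share the ND mice.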

How the data were processed

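RNA of eWAT from 12 male C57BL/6J mice was sequenced, with 3 mice each in ND, HFD, CLE and LU. The mice had fasted, and the paper calls these samples representative of their larger groups. How they were chosen is not stated, so their spread may differ from that of all mice of a group. The authors' notes name CASAVA 1.8.2, Bowtie2 2.2.3, TopHat2 2.0.12 and Cufflinks 2.2.1, and the deposited table holds FPKM per assembled transcript, with library depth not given. Columns in which the authors marked changed transcripts were not used, nor were 3 FPKM columns that name no sample. The column named MD4 was taken as ND mouse 4, since its number and its letter R fit that mouse alone and it stands with ND mice 2 and 3 in the header of a comparison.

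FPKM of Ensembl transcripts, and of assembled transcripts that match them or share a splice junction, were summed per gene of GENCODE M21 (GRCm38). This gave 22947 genes. Left out were 1177 rows of other assembled classes and 8149 rows with no Ensembl transcript. In the ND and LU libraries, 80.5% to 92.9% of a column's total FPKM lay outside these genes. Genes with at least 1 FPKM in at least 3 of 12 libraries (12775) entered limma 3.58.1 (R 4.3.3) on log2(FPKM + 1), with 4 group means, empirical Bayes moderation and 8 residual degrees of freedom, fitted over all groups so that they share the estimate of the spread. Calls used a fold change over 1.5 together with p adjusted over all genes by the method of Benjamini and Hochberg, under 0.05. Mice were housed singly per the study's methods, litters are not given, and p-values measure the spread between these mice. The alternatives tried are given in the closing section.

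Genes were named by rule: the 10 largest called changes in each direction without overlap of the groups, up to 4 called and the 2 most abundant members of each of 43 gene lists, a fixed set of genes of the study's topic, the 5 called genes per direction nearest to HFD, and up to 5 per direction changed against both ND and HFD. Single genes of the lists were named beyond this rule after their values were seen. The comparison, the lists and the rule were chosen with earlier results of these data known. Promoter windows came from RefSeq (GRCm38.p6). Analyses used Python 3.11.15 with pandas 2.3.3. A few genes are not reported here by name.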

Additional observations from a re-analysis of the deposited data

Results flagged for a closer look

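*Xcl1*, a chemokine of T and NK cells, differed between the supplements of the high-fat diet, in a test over all genes of CLE minus LU in the same fit. It had 1.06, 0.920 and 1.22 FPKM in LU mice 2, 3 and 8, 0.407, 0.554 and 0.162 FPKM in the ND mice, and 0.162, 0 and 0 FPKM in CLE mice 2, 4 and 11. The HFD mice had 1.14, 0.906 and 0.898 FPKM, which overlapped with LU. The difference CLE minus LU was -0.97 on the log2(FPKM + 1) scale (limma adjusted p = 0.039), with all 3 CLE mice below all 3 LU mice. LU minus ND was 0.60 (limma adjusted p = 0.0076), a call that was lost without ND mouse 4 or LU mouse 8. An exact 0, as in 2 of the CLE mice, can be a failed estimate in this file, so the difference from CLE may rest on it. *Xcl1* reached the filter of 1 FPKM only in LU mice 2 and 8 and HFD mouse 12. It was tested only through groups in which it is high, so its differences from CLE and ND carry that selection. The levels lie near the filter, and the depth behind them is unknown.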

How the results depend on the processing

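None of the 114 called genes named by rule changed direction under an alternative in which it was tested (10 of them had no value with a mean of at least 5 FPKM). Without a filter on low values, 431 genes were called higher and 114 lower, and with an adjusted p under 0.05 alone 1109 and 526. Without 1 ND or LU mouse, the counts were 443 to 727 higher and 129 to 238 lower, lowest without LU mouse 8 in both cases. The replicate numbers as a block gave 330 higher and 77 lower, of which 308 and 70 were among the main calls. ND and LU share only the numbers 2 and 3, the block leaves 2 residual degrees of freedom, and the deviations of same-numbered mice correlated at r = 0.10 (mouse 2) and 0.19 (mouse 3) across genes, so the mice were not taken as paired. The other alternatives gave 457 to 791 higher and 149 to 270 lower, among them a pseudocount of 0.1 (791 and 241), a mean of at least 5 FPKM (499 and 149), median ratios (594 and 227), quantile normalization (530 and 270), only the ND and LU libraries (542 and 168) and the highest transcript per gene (573 and 159). Transcripts unaltered from Ensembl, an alternative chosen after seeing the data, gave 537 and 158. Without the 4 libraries with the letter R it was 457 and 198, and 53 of the 114 named called genes stayed called, against 70 of 114 in every fit without 1 mouse. No scaling moved the median of all genes by more than 0.1 from 0, with medians from -0.03 to 0.03. FPKM without counts give no limit of detection. The causes of these changes were not tested.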

Other observations

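Calls were also counted by annotation class. Of genes annotated as processed transcripts, 12 were called lower, 1 higher and 115 not. The 1 called higher is *Ifi30*, counted in the report among the genes of MHC class II, so this class is not simply non-coding. Of lincRNA genes, 3 were called lower, 0 higher and 23 not, and of antisense genes 4, 0 and 33. Whether these shares differ from those of protein-coding genes (631 higher, 186 lower and 11678 not called) was not tested, and an antisense gene cannot be told apart from its partner gene without strand information.

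*Itgad* and *Tm4sf19* were listed at exactly 0 in ND mouse 3 and were called higher in LU. *Itgad*, the integrin alpha chain of tissue macrophages known as CD11d, had 0.0680, 0 and 0.0978 FPKM in ND mice 2, 3 and 4, 1.70, 1.49 and 5.20 FPKM in LU mice 2, 3 and 8, and 16.9, 12.4 and 20.3 FPKM in the HFD mice. *Tm4sf19* had 0.124, 0 and 0.0752 FPKM in the ND mice, 4.57, 3.37 and 10.5 FPKM in the LU mice, and 32.3, 29.0 and 35.9 FPKM in the HFD mice. In both genes the groups did not overlap, LU lay between ND and HFD, and LU mouse 8 was the highest of its group. The log2 fold changes were 1.72 (limma adjusted p = 0.014) and 2.62 (limma adjusted p = 0.0051) on the log2(FPKM + 1) scale, which understates changes from so low a level. No ND mouse reached 1 FPKM in either gene, so both were tested only through other groups, and their differences from ND carry that selection. Both genes were singled out after their values were seen.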
